A study of Homo sapiens with 70 samples.

Results

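The genes described here are 10 members of the Notch pathway, out of 44503 genes counted: the receptors NOTCH1, NOTCH2 and NOTCH3, the ligands JAG1, JAG2 and DLL1, and the target genes HES1, HES4, HEY1 and HEYL. They were chosen by name rather than by a measured value, though with earlier results of these data known. All 10 were found in each of the 3 count tables. mRNA was sequenced from 70 libraries in 11 groups. IMR90 cells are human fetal lung fibroblasts, and all of them carried pLNCX2 ER:HRAS G12V, an oncogenic HRAS fused to an oestrogen receptor domain that 4-hydroxytamoxifen (4OHT) switches on. H1299 is an established line from a non-small cell lung carcinoma and carried no such fusion. IMR90 cells were kept in 5% O2 and H1299 cells in atmospheric O2.

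In the first experiment, growing cells (Grow) and cells in oncogene-induced senescence (OIS, 6 days in 100 nM 4OHT) carried the empty vector pMSCV miR v, and Grow-shA1 and OIS-shA1 cells carried pMSCV miR shHMGA1 instead, with 8 libraries per group. In the second, cells carried a pair of vectors. Grow-v-v and OIS-v-v had pSuper v and pMSCV miR v, and OIS-shCEBPB had pSuper shCEBPB and pMSCV miR v. OIS-shp53 had pSuper v and pMSCV miR p53, and OIS-shCEBPB-shp53 had pSuper CEBPB and pMSCV miR p53, with 5 libraries per group. The titles of OIS-shCEBPB-shp53 name both hairpins, though its vector labels lack the letters sh. Every OIS group of the second experiment had also received 100 nM 4OHT for 6 days, and Grow-v-v was labelled day 0. The labels give no 4OHT treatment for Grow, Grow-shA1, Grow-v-v or the H1299 groups. In each comparison of OIS with growing cells, senescence and the drug itself cannot be told apart. In the second experiment, days in culture cannot be told apart from them either. In the third, H1299 carried pMSCV miR v (7 libraries) and H1299-shA1 pMSCV miR shHMGA1 (6 libraries). Each target was depleted with 1 labelled hairpin construct, in whole transduced cultures, so off-target effects cannot be told apart from loss of the target. The methods of the study state that off-targets of the HMGA1 hairpin are not fully excluded. The labels state 6 biological replicates per condition while the methods of the study state 8, so p-values here measure the spread between libraries.

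Notch receptors are cleaved when a Jagged or Delta-like ligand on a neighbouring cell binds them, and the freed intracellular domain enters the nucleus. There it joins the DNA-binding protein RBPJ and a Mastermind co-activator to switch on genes such as those of the HES and HEY families, which encode basic helix-loop-helix repressors. The pathway is known for deciding between neighbouring cell fates, and in senescent fibroblasts NOTCH1 is known for shaping what the cells secrete. Transcript levels of these genes do not measure cleavage or signalling.

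The target genes HES1, HES4 and HEYL are shown by the 250 bases before their annotated start in RefSeq (build GRCh38.p14), because these are the members whose promoter window held the core letters of an RBPJ site, TGGGAA on either strand. Each is written 5′ to 3′ on the strand of the gene, with the core in capitals (TTCCCA where it lies on the opposite strand).
HES1, plus strand, chr3:194135898-194136147: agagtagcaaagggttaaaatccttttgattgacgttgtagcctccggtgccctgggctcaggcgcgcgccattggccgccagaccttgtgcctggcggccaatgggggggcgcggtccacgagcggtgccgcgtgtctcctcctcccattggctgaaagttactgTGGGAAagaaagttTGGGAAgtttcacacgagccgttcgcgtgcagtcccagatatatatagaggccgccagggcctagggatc
HES4, minus strand, chr1:1000098-1000347: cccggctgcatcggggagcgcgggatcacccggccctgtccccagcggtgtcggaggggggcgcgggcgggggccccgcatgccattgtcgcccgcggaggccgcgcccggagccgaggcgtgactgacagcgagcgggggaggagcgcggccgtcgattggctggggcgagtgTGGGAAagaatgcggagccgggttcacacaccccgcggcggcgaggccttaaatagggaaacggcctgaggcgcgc
HEYL, minus strand, chr1:39639644-39639893: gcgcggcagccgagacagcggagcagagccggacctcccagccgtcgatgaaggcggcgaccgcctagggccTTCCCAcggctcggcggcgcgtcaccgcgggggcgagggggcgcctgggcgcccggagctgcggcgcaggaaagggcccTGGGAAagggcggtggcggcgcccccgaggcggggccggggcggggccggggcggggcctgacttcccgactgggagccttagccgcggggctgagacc
In HES1 the 2 matches began at positions -84 and -70 from the start, in HES4 the single match began at -76, and in HEYL the matches began at -178 (opposite strand) and -99. Windows of 250 bases before to 50 bases after the start were found for 8 of the 10 members (all but DLL1 and HEY1), and 3 of these 8 held TGGGAA, against 24% of 35116 promoters. The E-box CACGTG, a palindrome, was in 0 of the 8 and in 7.26% of promoters. The N-box CACNAG, searched on both strands, which HES proteins can bind, was in HES1, NOTCH1, NOTCH2 and NOTCH3, 4 of the 8, and in 38% of promoters. A match describes the letters and not the binding of a protein.

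On hg19, the receptor genes lie at chr9:139388896-139440314 (NOTCH1), chr1:120454176-120612240 (NOTCH2) and chr19:15270444-15311792 (NOTCH3). The ligand genes lie at chr20:10618332-10654694 (JAG1), chr14:105607318-105635161 (JAG2) and chr6:170591294-170599561 (DLL1). The target genes lie at chr3:193853934-193856521 (HES1), chr1:934342-935491 (HES4), chr8:80676245-80680098 (HEY1) and chr1:40089825-40105617 (HEYL). HES1 is on the plus strand and the other members are on the minus strand. Values are fragments or reads over all exons of a gene. NOTCH2 has near-identical NOTCH2NL copies with which its reads can be confused, so its level is uncertain. JAG1 shares 365 exonic bases, 7.62% of its length, with overlapping genes (286 bases on its own strand and 79 antisense), and JAG2 shares 469 bases, 7.43%, with a gene on its own strand. Counts from these bases are uncertain.

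Library totals ran from 13904974 to 24890797 counts, except for OIS replicate 4 with 1903607, and leaving that library out changed 0 calls on the members. The depletion of HMGA1 and CEBPB was visible in every library: HMGA1 was at 7.21% of control in Grow-shA1, 8.11% in OIS-shA1 and 20.1% in H1299-shA1, and CEBPB at 12% in OIS-shCEBPB and 10.9% in OIS-shCEBPB-shp53, with no overlap with control libraries. The fibroblast genes COL1A2, COL3A1, PDGFRB and THY1 stayed under 1 CPM (counts of a gene scaled to the library total) in every H1299 library and were above it in IMR90. COL1A1 reached 1.19 CPM in H1299, and VIM, the other marker of the list, was at 1205 to 1301 CPM in H1299 and up to 1619 CPM in H1299-shA1. The summed level of the 6 fibroblast markers was 39290 to 48800 CPM in Grow and 5952 to 7355 CPM in OIS, and the part of this difference in the Notch values was not tested. CDH1 and EPCAM, which define epithelia, stayed under 1 CPM in all H1299 libraries too, as did KRT19. KRT7 was under 1 CPM in H1299 and reached 1.19 CPM in H1299-shA1. Both keratins had higher means in Grow (KRT7 4.515 CPM, KRT19 1.216 CPM). The 6 epithelial markers summed to 602.9 to 840.1 CPM in H1299 and 463.6 to 528.0 CPM in H1299-shA1. Nearly all of this came from KRT8 (366 ± 55 CPM in H1299) and KRT18 (329 ± 49.3 CPM in H1299). The immune genes PTPRC and CD14 stayed under 1 CPM in Grow and OIS, while CD68 was at 16.5 to 23.6 CPM in Grow and 45 to 62.5 CPM in OIS. In bulk RNA, fewer cells of a type and less RNA per cell cannot be told apart. In the second experiment, replicates 1 to 3 stood apart from replicates 4 and 5 along the first principal component of deviations from group means (42.0% of variance), so values from it are given with that split where it changed a call.

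Counts were scaled to CPM with TMM factors over all 70 libraries, and genes were compared with each other only per kilobase (kb) of exon. In Grow the receptors NOTCH3 (28.2 ± 2.1 CPM per kb, mean ± SD, n = 8) and NOTCH2 (22.4 ± 2.48) were the highest of the members, the repressors HES4 (9.23 ± 1.11) and HES1 (8.5 ± 1.5) followed, and NOTCH1 (4.2 ± 0.420) and JAG1 (3.94 ± 0.474) came next. HEY1, HEYL, DLL1 and JAG2 were each near 1 or lower. The order of the receptors differed in OIS. NOTCH3 made up 51.5% ± 2.94 of the receptor sum per kb in Grow and 14.6% ± 1.55 in OIS, whereas NOTCH1 made up 7.64% ± 0.47 and 26.8% ± 2.22. Among the ligand members JAG1, JAG2 and DLL1, JAG1 held 96.1% ± 1.54 of the sum in Grow and 95.5% ± 1.43 in OIS. In H1299 JAG1 held 52.1% ± 2.17 and JAG2 46.3% ± 2.01. These shares leave out ligands that are not members, such as DLL4 at 93 ± 18.5 CPM in Grow and 0.109 ± 0.0403 CPM in H1299. Among the targets, HEY1 held 5.39% ± 0.73 of the sum in Grow, 32.9% ± 2.85 in OIS and 53.9% ± 5.46 in OIS-shA1, and HES1 held 50.7% ± 1.4 in H1299.

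**Figure D1:**
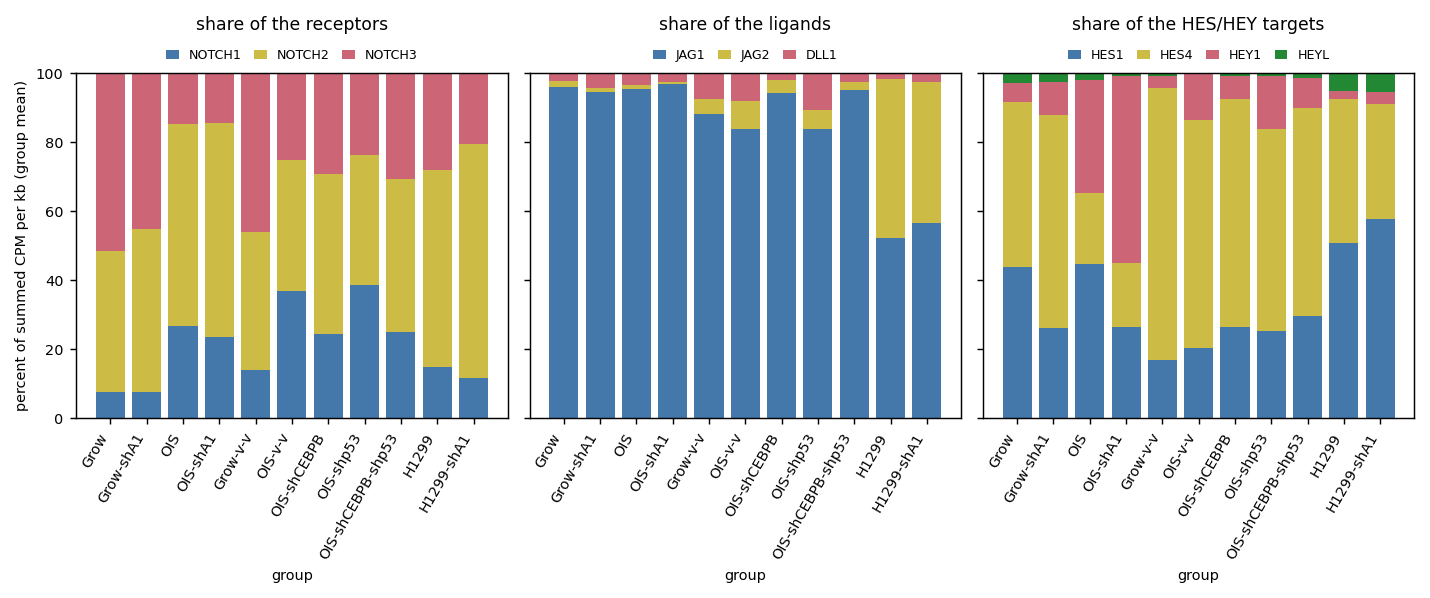
Share of each gene in the summed CPM per kb of the 3 receptors, 3 ligands and 4 targets (y axis, percent, group mean) for the 11 groups (x axis). NOTCH3 takes 51.5% of the receptor sum in Grow and 14.6% in OIS, JAG2 takes 46.3% of the ligand sum in H1299, and HEY1 takes 53.9% of the target sum in OIS-shA1.

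The first comparison asks how the Notch genes differ between senescent and growing fibroblasts. A gene is called where edgeR's quasi-likelihood test gave an adjusted p (Benjamini-Hochberg over all genes tested) under 0.05, and errors of fold changes are SEs on the log2 scale. In OIS against Grow, 4 members rose (NOTCH1, JAG1, DLL1, HEY1) and 4 fell (NOTCH2, NOTCH3, HES4, HEYL) of 9 tested. HES1 was not called and JAG2 was too low to test. Of all genes tested, 38.8% rose and 35.9% fell, and the median log2 fold change was -0.11 over the tested members and 0.03 over all genes.

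Among the receptors, NOTCH3, known from vascular smooth muscle and pericytes, fell most. It was at 227 to 286 CPM (median 247) in Grow and at 30.9 to 43.4 CPM (median 40.5) in OIS (log2 fold change -2.67 ± 0.06, adjusted p = 1.02e-24, 6.34-fold lower). All 8 OIS libraries lay far below all 8 Grow libraries. NOTCH1 moved the other way, from 34.9 to 45.8 CPM (median 42.1) in Grow to 50.4 to 99 CPM (median 83.4) in OIS (log2 fold change 0.99 ± 0.07, adjusted p = 4.56e-13). The groups did not overlap, and the lowest OIS library was the shallow replicate 4. NOTCH2 was at 325 to 437 CPM (median 372) in Grow and 240.3 to 327 CPM (median 300.4) in OIS (log2 fold change -0.33 ± 0.06, adjusted p = 5.05e-06), and the 2 ranges just touched.

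The ligand JAG1 was at 13.8 to 21.4 CPM (median 19.4) in Grow and at 29.9 to 48.5 CPM (median 42.1) in OIS (log2 fold change 1.06 ± 0.09, adjusted p = 1.67e-11), with no overlap. DLL1, a Delta-like ligand, was at 0.138 to 0.736 CPM (median 0.237) in Grow and 0.494 to 1.33 CPM (median 0.897) in OIS (log2 fold change 1.73 ± 0.30, adjusted p = 9.94e-06). DLL1 had 1 to 25 counts in the OIS libraries, and the groups overlapped because Grow replicate 6, at 0.736 CPM, lay above the 2 lowest OIS libraries. JAG2 was at 0.174 to 0.567 CPM (median 0.483) in Grow and 0.124 to 0.896 CPM (median 0.614) in OIS, below the filter for a test.

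Of the targets, HEY1 showed the largest rise, from 2.2 to 5.02 CPM (median 3.33) in Grow to 18 to 22.2 CPM (median 18.8) in OIS (log2 fold change 2.49 ± 0.10, adjusted p = 1.4e-18, 5.6-fold higher). Every OIS library was above every Grow library. HES4 went from 7.67 to 10.9 CPM (median 9.86) to 1.48 to 6.5 CPM (median 3.94) (log2 fold change -1.20 ± 0.13, adjusted p = 1.86e-09), again without overlap. HES1, a Notch target in many tissues, was at 12.5 to 20.8 CPM (median 15.2) in Grow and 12.2 to 19.8 CPM (median 14.1) in OIS, with a log2 difference of -0.11 ± 0.10, adjusted p = 0.312 and a 95% interval of -0.30 to 0.08, and the groups overlapped throughout. HEYL was at 0.832 to 3.16 CPM (median 2.13) and 0.494 to 1.97 CPM (median 1.35) (log2 fold change -0.64 ± 0.23, adjusted p = 0.0152), and the groups overlapped. That call was lost with library sizes alone (log2 fold change -0.45, adjusted p = 0.0798).

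**Figure D2:**
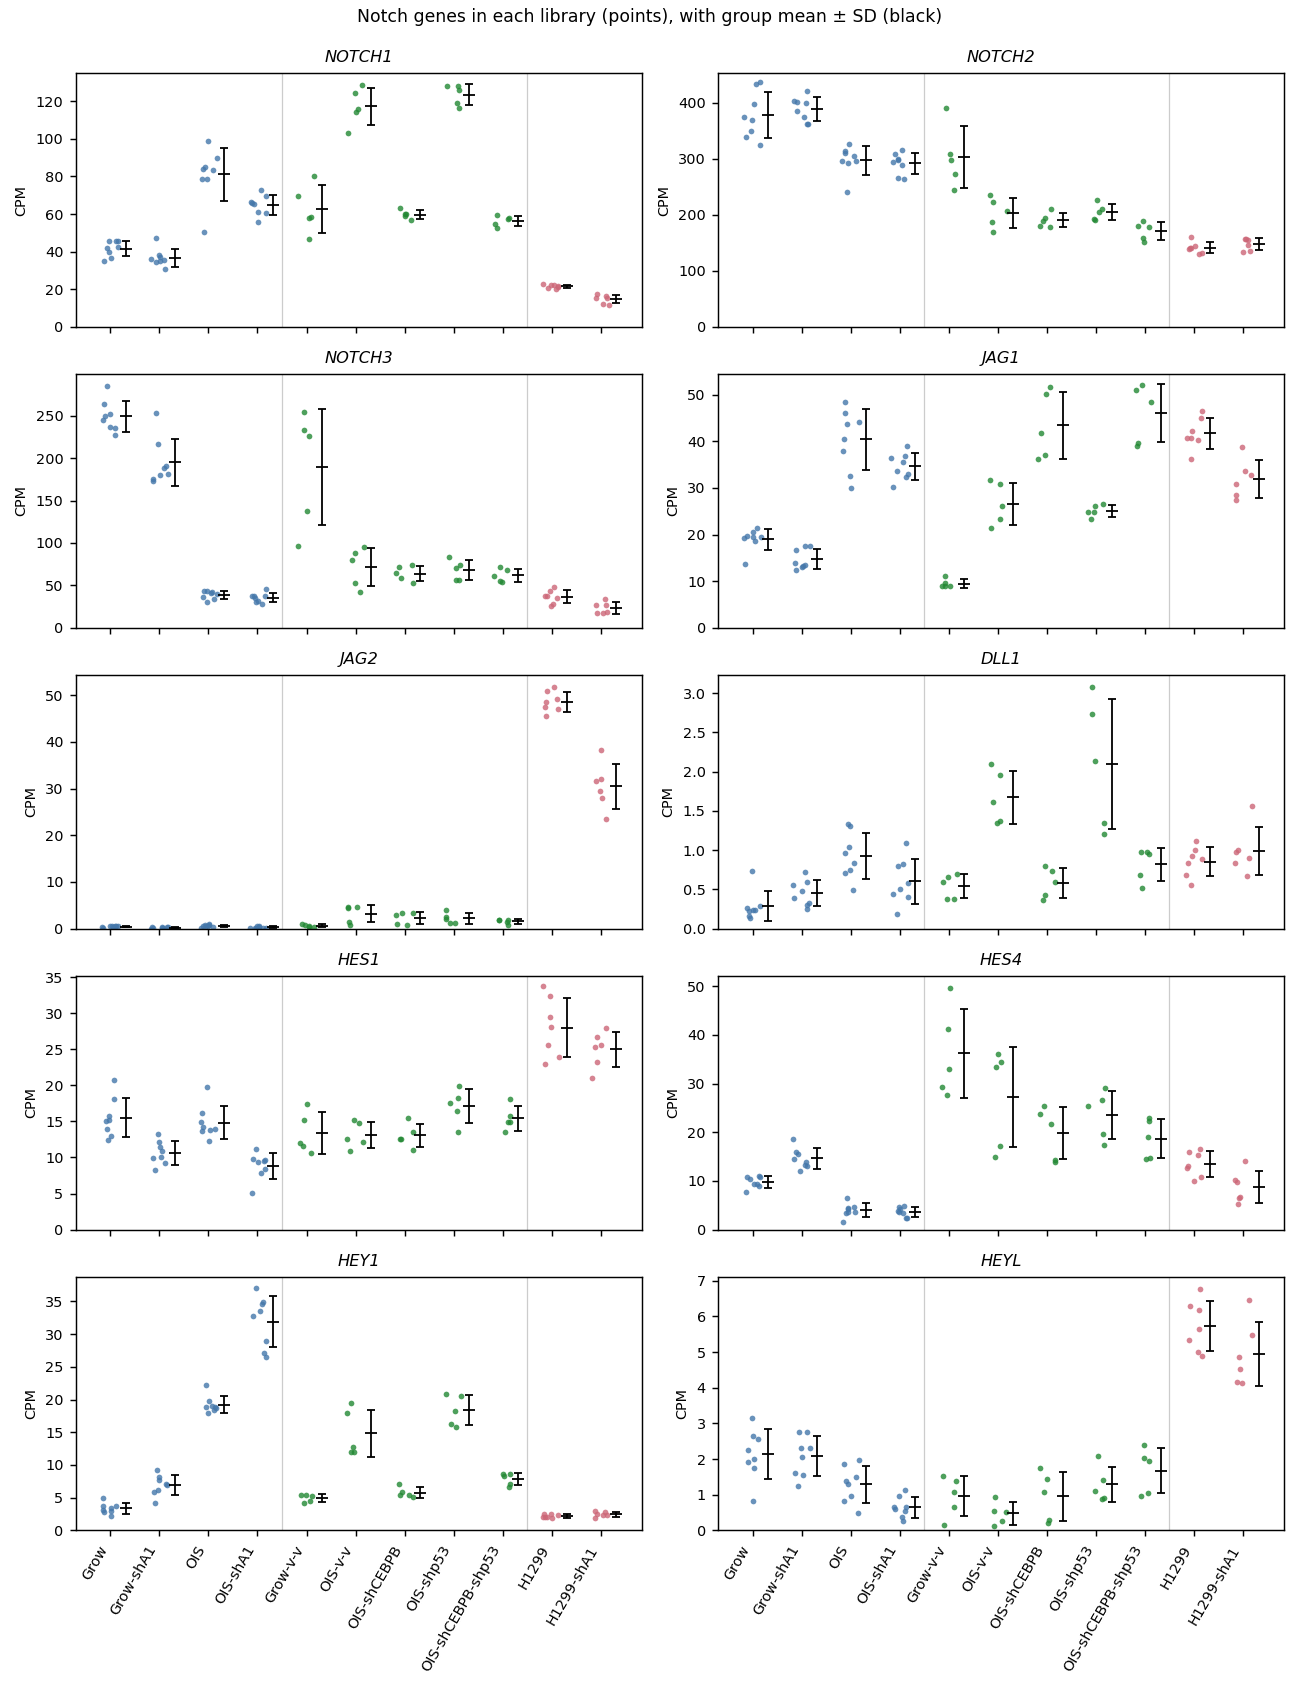
Level of each of the 10 Notch genes in every library (points; y axis, CPM from 0) by group (x axis), with the group mean ± SD in black and grey lines between the 3 experiments. NOTCH3 lies at 227 to 286 CPM in Grow and at 30.9 to 43.4 CPM in OIS, and JAG2 reaches 45.6 to 51.7 CPM in H1299 while it stays at or under 4.70 CPM in all IMR90 libraries.

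The second experiment repeated the comparison in cells with other vectors. In OIS-v-v against Grow-v-v, 5 members rose (NOTCH1, JAG1, JAG2, DLL1, HEY1) and 2 fell (NOTCH2, NOTCH3) of 10 tested, where 22.7% of all genes rose and 23.2% fell. NOTCH1 was at 57.8, 58.5, 46.8, 80.3 and 69.7 CPM in Grow-v-v and at 114, 124, 103, 116 and 128 CPM in OIS-v-v (log2 fold change 0.90 ± 0.13, adjusted p = 0.000128). All 5 senescent libraries were above all 5 growing ones.
NOTCH3 was at 226, 254, 233, 138 and 96.1 CPM in Grow-v-v and 88, 95, 80.2, 42.4 and 52.5 CPM in OIS-v-v (log2 fold change -1.41 ± 0.28, adjusted p = 0.00119). The groups just failed to overlap, and in both groups replicates 4 and 5, given last, were lower than replicates 1 to 3. JAG1 rose from 8.93, 8.87, 9.62, 11.1 and 8.93 CPM to 21.4, 26.1, 23.2, 30.8 and 31.6 CPM (log2 fold change 1.48 ± 0.13, adjusted p = 2.09e-06), and HEY1 from 5.49, 5.42, 5.22, 4.22 and 4.47 CPM to 12, 12.7, 12, 19.5 and 17.9 CPM (log2 fold change 1.56 ± 0.17, adjusted p = 1.21e-05), both without overlap. JAG2, tested here, was at 0.592, 0.957, 0.890, 0.291 and 0.372 CPM in Grow-v-v and 4.7, 4.57, 4.5, 0.818 and 1.5 CPM in OIS-v-v (log2 fold change 2.32 ± 0.50, adjusted p = 0.00213). It was above 4 CPM in replicates 1 to 3 of OIS-v-v and under 2 CPM in replicates 4 and 5.
DLL1 rose (1.61 ± 0.25, adjusted p = 0.000185 on the log2 scale) and NOTCH2 fell (-0.58 ± 0.13, adjusted p = 0.00304), with separate groups for each, while HES1 differed by -0.04 ± 0.15, adjusted p = 0.873 (95% interval -0.34 to 0.27) and HEYL by -1.05 ± 0.53, adjusted p = 0.126. HEYL was called without Grow-v-v replicate 5 (adjusted p = 0.0276). HES4 had no single direction. It was at 29.3, 27.7, 33.1, 41.3 and 49.7 CPM in Grow-v-v and 36.1, 33.3, 34.5, 15 and 17.2 CPM in OIS-v-v (log2 fold change -0.42 ± 0.25, adjusted p = 0.197). In replicates 1 to 3 alone its log2 difference was 0.19 ± 0.08, adjusted p = 0.0359, and in replicates 4 and 5 alone -1.51 ± 0.16, adjusted p = 3.25e-06. HEYL was also called in replicates 1 to 3 alone (-1.0, adjusted p = 0.00858). Of all genes, 66.8% were called in replicates 1 to 3 alone and 40.5% in replicates 4 and 5 alone. The fit with replicate number as a block changed no call in this comparison.

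**Figure D3:**
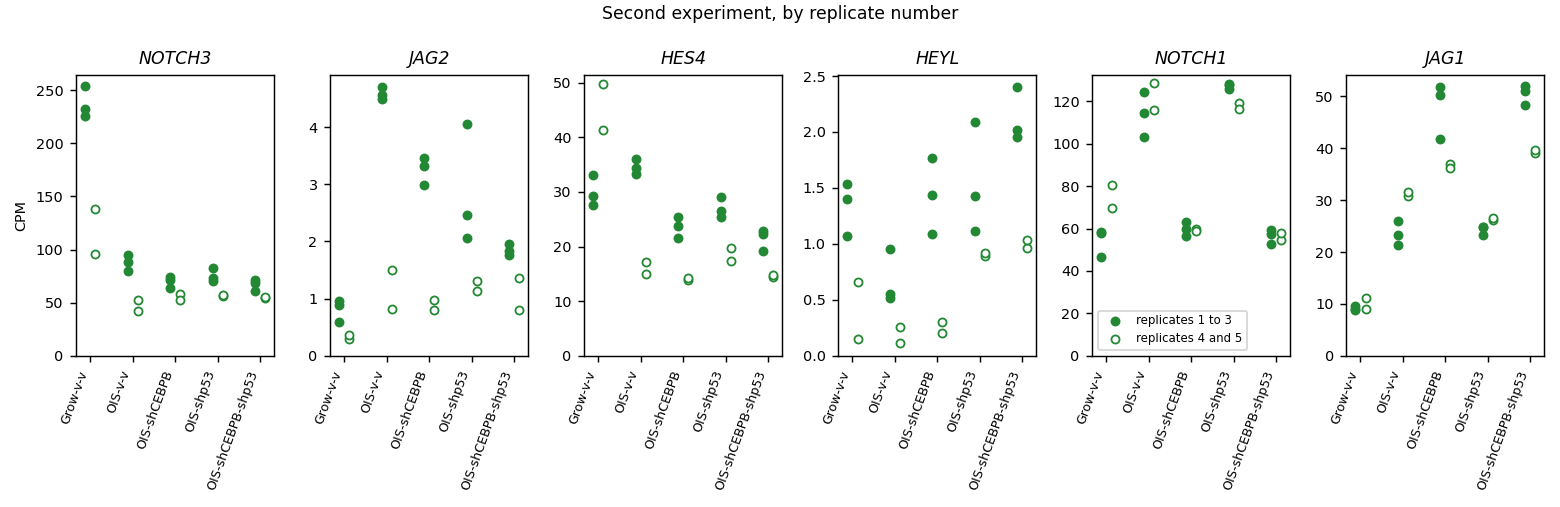
NOTCH3, JAG2, HES4, HEYL, NOTCH1 and JAG1 in every library of the second experiment (y axis, CPM from 0) by group (x axis), with replicates 1 to 3 as filled and replicates 4 and 5 as open points. In all 5 groups the filled and open points do not overlap for NOTCH3, JAG2, HES4 and HEYL, and for HES4 replicates 4 and 5 lie above the others in Grow-v-v (41.3 and 49.7 CPM) and below them in the 4 OIS groups.

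The levels of the same state also differed between experiments. In Grow-v-v against Grow, 8 members could be tested, of which 3 were higher (NOTCH1, HES4, HEY1) and 3 lower (NOTCH2, JAG1, HEYL), against 35.6% and 34.7% of all genes. HES4 differed most (36.2 ± 9.21 CPM in Grow-v-v, 9.77 ± 1.17 CPM in Grow, log2 fold change 1.91 ± 0.13, adjusted p = 2.49e-09), then HEYL (-1.09 ± 0.36 on the log2 scale) and JAG1 (-0.98 ± 0.10). These groups differ in vectors, table and libraries, which cannot be told apart.

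The next comparisons set cells with the hairpin against HMGA1, an abundant chromatin protein with AT-hooks, beside vector cells in each state. With the hairpin, NOTCH1 and HES1 were lower and HEY1 was higher in OIS cells. In OIS-shA1 against OIS, 1 member rose (HEY1) and 3 fell (NOTCH1, HES1, HEYL) of 9 tested, while 18.8% of all genes rose and 17.1% fell. HEY1 was at 26.4 to 37 CPM (median 33.2) in OIS-shA1 against 18 to 22.2 CPM (median 18.8) in OIS (log2 fold change 0.75 ± 0.07, adjusted p = 4.24e-09). The groups did not overlap, and HEY1, the tested member with the largest rise in OIS, was higher still. HES1 was at 5.1 to 11.2 CPM (median 9.46) against 12.2 to 19.8 CPM (median 14.1) (log2 fold change -0.69 ± 0.11, adjusted p = 1.92e-05), also without overlap.
NOTCH1 was at 55.9 to 72.7 CPM (median 65.5) against 50.4 to 99 CPM (median 83.4) (log2 fold change -0.36 ± 0.07, adjusted p = 0.000228), and overlapped through OIS replicate 4. Without that library the log2 fold change was -0.40 (adjusted p = 2.67e-06), and the call held. HEYL was at 0.255 to 1.14 CPM (median 0.624) against 0.494 to 1.97 CPM (median 1.35) (log2 fold change -1.07 ± 0.27, adjusted p = 0.00252), with overlap. JAG1 (-0.20 ± 0.08, adjusted p = 0.0559 on the log2 scale) and DLL1 (-0.66 ± 0.28, adjusted p = 0.0629) lay just outside the threshold. JAG1 passed it without OIS-shA1 replicate 5 (adjusted p = 0.0392) or OIS replicate 6 (0.00818) or 7 (0.0193), and also with DESeq2 (0.0392), upper-quartile factors (0.0467), library sizes alone (0.00692) or a filter of 1 count (0.0351). DLL1 passed it without OIS-shA1 replicate 6 (0.0193), with library sizes alone (0.0322) or with all groups in 1 fit (0.0498). NOTCH2 differed by -0.04 ± 0.05 (95% interval -0.13 to 0.06), NOTCH3 by -0.15 ± 0.08 (-0.31 to 0.01) and HES4 by -0.22 ± 0.17 (-0.56 to 0.12). NOTCH3 passed the threshold without OIS-shA1 replicate 6 (adjusted p = 0.0339) or OIS replicate 2 (0.0449). With library sizes alone, both NOTCH3 (-0.24, adjusted p = 0.023) and NOTCH2 (-0.12, adjusted p = 0.0313) were called lower.

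In Grow-shA1 against Grow, 2 members rose (HES4, HEY1) and 3 fell (NOTCH3, JAG1, HES1) of 8 tested, where 14.8% of all genes rose and 15.1% fell. The 6 fibroblast markers summed to 28600 to 35020 CPM in Grow-shA1, below every Grow library, and their part in these results was not tested. HES4 was at 12 to 18.7 CPM (median 14.2) in Grow-shA1 against 7.67 to 10.9 CPM (median 9.86) in Grow (log2 fold change 0.59 ± 0.09, adjusted p = 1.48e-05), the only member of this comparison with groups apart. HEY1 was at 4.15 to 9.19 CPM (median 6.95) against 2.2 to 5.02 CPM (median 3.33) (log2 fold change 1.04 ± 0.15, adjusted p = 7.59e-06). All knock-down libraries but 1 were above every control library. HES1 was at 8.28 to 13.3 CPM (median 10.4) against 12.5 to 20.8 CPM (median 15.2) (log2 fold change -0.53 ± 0.10, adjusted p = 0.000241).
JAG1 (-0.37 ± 0.09, adjusted p = 0.00198 on the log2 scale) and NOTCH3 (-0.34 ± 0.06, adjusted p = 0.000145) fell as well, NOTCH1 differed by -0.17 ± 0.07, adjusted p = 0.0719, and NOTCH2 and HEYL differed by 0.05 ± 0.05 and -0.04 ± 0.22. NOTCH1 was called lower without Grow-shA1 replicate 5 (adjusted p = 0.00526) or Grow replicate 1 (0.044) or 3 (0.0309). JAG2 had no count in Grow-shA1 replicate 4, which allows up to 0.231 CPM there. JAG2 and DLL1 were too low to test.

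Whether the effect of depletion differed between the 2 states was tested as an interaction. It was called for 3 of 9 members: HES4 (-0.81 ± 0.19, adjusted p = 0.0014), HEYL (-1.03 ± 0.35, adjusted p = 0.0285) and DLL1 (-1.29 ± 0.45, adjusted p = 0.0299), all with a lower log2 effect in OIS than in Grow, where 12.2% of all genes had a higher and 11.4% a lower effect. For HES1 (-0.16 ± 0.16, adjusted p = 0.522) and HEY1 (-0.29 ± 0.16, adjusted p = 0.199) the difference between states was not called. DLL1 rests on few counts, and its call was lost when all genes with at least 1 count were tested (adjusted p = 0.0884). Comparing the knock-down cells with each other, OIS-shA1 against Grow-shA1, called all 8 members tested: NOTCH1 (0.79 ± 0.07 on the log2 scale), JAG1 (1.21 ± 0.08) and HEY1 (2.18 ± 0.11) rose, and NOTCH2 (-0.44 ± 0.04), NOTCH3 (-2.49 ± 0.08), HES1 (-0.28 ± 0.12), HES4 (-2.03 ± 0.13) and HEYL (-1.68 ± 0.25) fell, against 37.1% and 36% of all genes. The call on HES1 (adjusted p = 0.0383) was lost without Grow-shA1 replicate 1, 4, 5 or 7 or OIS-shA1 replicate 1, 7 or 8 (adjusted p from 0.052 to 0.0817). This comparison and the one of OIS against OIS-shA1 share libraries.

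The second experiment asks how these genes differ in OIS with the hairpin against CEBPB, a transcription factor of the senescent secretory programme. It also asks how they differ in OIS-shp53 and with both hairpins. Its 3 knock-down comparisons share the OIS-v-v libraries. In OIS-shCEBPB, NOTCH1, DLL1 and HEY1 lay nearer their Grow-v-v levels than in OIS-v-v, and JAG1 was higher than in both. Among markers of growth and senescence, IL1B was at 974 ± 208 CPM, against 7712 ± 1531 in OIS-v-v and 750 ± 106 in Grow-v-v. MKI67, CCNA2 and CCNB1 had higher means than in OIS-v-v, nearer Grow-v-v, with overlapping ranges. CDKN1A and CDKN2A also had higher means than in OIS-v-v, further from Grow-v-v. The part of these markers in the Notch values was not tested. In OIS-shCEBPB against OIS-v-v, 1 member rose (JAG1) and 3 fell (NOTCH1, DLL1, HEY1) of 9 tested, where 9.09% of all genes rose and 8.0% fell. HEYL was too low to test. NOTCH1 was at 59.9, 63.2, 56.6, 60 and 58.9 CPM against the 103 to 128 CPM of OIS-v-v (log2 fold change -0.97 ± 0.06, adjusted p = 1.05e-06). All 5 libraries were in the range of Grow-v-v and below every OIS-v-v library.
DLL1 was at 0.423, 0.596, 0.804, 0.360 and 0.732 CPM against 1.95, 1.61, 2.09, 1.34 and 1.37 CPM (log2 fold change -1.50 ± 0.25, adjusted p = 0.00135). HEY1 was at 5.43, 5.07, 5.39, 7.15 and 5.86 CPM (log2 fold change -1.36 ± 0.17, adjusted p = 0.000151), with all libraries below those of OIS-v-v for both genes. JAG1 was at 50.2, 51.7, 41.8, 37 and 36.2 CPM against 21.4 to 31.6 CPM in OIS-v-v (log2 fold change 0.70 ± 0.14, adjusted p = 0.00362), and the groups did not overlap. For JAG1 the log2 fold change was 1.02 ± 0.09 (adjusted p = 5.11e-08) in replicates 1 to 3 alone and 0.23 ± 0.09 (adjusted p = 0.0758) in replicates 4 and 5 alone, a difference that was not tested. Same-numbered libraries deviated together in this experiment, which was not told apart from the split of replicates 1 to 3 from 4 and 5. The fit with replicate number as a block is therefore given where it changes a call. It added JAG2 (-0.46 ± 0.16, adjusted p = 0.0472) and HES4 (-0.43 ± 0.08, adjusted p = 0.00173), both lower. The block fit called 16.9% of all genes higher and 15% lower. NOTCH2 (-0.10 ± 0.09 without the block), NOTCH3 (-0.16 ± 0.20) and HES1 (-0.01 ± 0.11, 95% interval -0.23 to 0.22) were not called in either fit. The split changed more calls. In replicates 1 to 3 alone 8 of 10 members were called, among them NOTCH3 (-0.34, adjusted p = 0.000765), JAG2 (-0.50, adjusted p = 0.0138), HES4 (-0.55, adjusted p = 1.36e-05) and HEYL (1.04, adjusted p = 0.0177), where 32.6% of all genes were called. In replicates 4 and 5 alone 4 of 9 were called, among them NOTCH2 (-0.29, adjusted p = 0.00262), where 24.6% of all genes were called, and NOTCH3 lay on the other side of 0 (0.22, adjusted p = 0.0909).

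In OIS-shp53 against OIS-v-v, edgeR called 0 of 10 members, against 2.47% of all genes higher and 1.97% lower. 2 members had an unadjusted p under 0.05, HES1 and HEYL, and DESeq2 called these same 2, among 1091 of 13378 genes. HES1 was at 18.3, 16.5, 13.5, 19.9 and 17.5 CPM against 12.2, 12.5, 11, 14.8 and 15.2 CPM (0.38 ± 0.12, adjusted p = 0.102). HEYL was at 2.09, 1.11, 1.43, 0.892 and 0.920 CPM against 0.549, 0.515, 0.950, 0.117 and 0.261 CPM (1.44 ± 0.42, adjusted p = 0.0825). HEYL was called without OIS-v-v replicate 3 (adjusted p = 0.0487). For HES1 4 of the 5 knock-down libraries and for HEYL 3 of the 5 were above every OIS-v-v library. With the replicate block, HES1 (0.38 ± 0.08, adjusted p = 0.00342), HEYL (1.44 ± 0.30, adjusted p = 0.00473) and HEY1 (0.32 ± 0.11, adjusted p = 0.0473) were called higher, a fit in which 12% of all genes were higher and 10.7% lower. In replicates 1 to 3 alone 7 of 10 members were called, against 34% of all genes: NOTCH1 (0.16, adjusted p = 0.0206), HES1 (0.44, adjusted p = 0.00152), HEY1 (0.54, adjusted p = 0.000144) and HEYL (1.23, adjusted p = 0.0052) higher, and NOTCH3 (-0.21, adjusted p = 0.00814), JAG2 (-0.72, adjusted p = 0.00501) and HES4 (-0.36, adjusted p = 0.00019) lower. In replicates 4 and 5 alone HEYL was called (2.23, adjusted p = 0.0379), against 5.33% of all genes, and NOTCH1 (-0.07), NOTCH3 (0.25), JAG2 (0.09) and HES4 (0.18) had the opposite sign without a call. Over all 5 replicates and without the block, the log2 difference of NOTCH1 was 0.07 ± 0.06 (95% interval -0.06 to 0.19) and that of JAG1 -0.10 ± 0.11 (-0.30 to 0.11).

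In OIS-shCEBPB-shp53 against OIS-v-v, 2 members rose (JAG1, HEYL) and 3 fell (NOTCH1, DLL1, HEY1) of 10 tested, against 17.1% and 16.5% of all genes. IL1B was at 729 ± 76.6 CPM in the double knock-down, MKI67 at 110 ± 8.16 CPM and CCNB1 at 90.2 ± 5.7 CPM. In OIS-v-v they were at 7712 ± 1531, 66 ± 22 and 37.8 ± 11.1 CPM. CDKN2A was higher too (52.8 ± 4.9 against 25.8 ± 7.85 CPM), further from Grow-v-v. The part of these markers in the Notch values was not tested. NOTCH1 was at 59.5, 57.5, 52.7, 54.6 and 57.9 CPM (log2 fold change -1.06 ± 0.06, adjusted p = 2.32e-07), a level that overlapped with that of the CEBPB knock-down alone. HEYL was at 2.4, 1.96, 2.02, 0.964 and 1.04 CPM (log2 fold change 1.80 ± 0.42, adjusted p = 0.00605), above every OIS-v-v library. HEY1 (-0.92 ± 0.16, adjusted p = 0.00082), DLL1 (-1.02 ± 0.22, adjusted p = 0.0042) and JAG1 (0.79 ± 0.12, adjusted p = 0.000439) had the same sign on the log2 scale as with CEBPB depletion alone.
The block added HES1 (higher, 0.23 ± 0.09, adjusted p = 0.0468) and NOTCH2 (-0.25 ± 0.06, adjusted p = 0.00447), JAG2 (-0.99 ± 0.22, adjusted p = 0.00411) and HES4 (-0.50 ± 0.10, adjusted p = 0.00321), all lower, where 21.9% of all genes were higher and 21.4% lower. Without the block, NOTCH2 passed the threshold on leaving out OIS-v-v replicate 3 (adjusted p = 0.0176) or OIS-shCEBPB-shp53 replicate 4 (0.0477), JAG2 without OIS-v-v replicate 4 (0.00922) or 5 (0.0397), and HES4 without OIS-v-v replicate 4 (0.022) or 5 (0.0453). NOTCH3 differed by -0.21 ± 0.20 without the block and was not called in either fit. In replicates 1 to 3 alone all 10 members were called, against 53.7% of all genes, among them NOTCH3 (-0.38, adjusted p = 5.76e-05) and JAG2 (-1.30, adjusted p = 2.6e-06). In replicates 4 and 5 alone 6 were called, against 28.7% of all genes, while NOTCH3 (0.20, adjusted p = 0.113) and JAG2 (-0.11, adjusted p = 0.871) were not.

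The carcinoma line differed from Grow in the levels of these transcripts, as it did for most genes. H1299 was compared with Grow across tables, so cell line, O2, counted unit (reads in H1299, fragments in Grow) and experiment cannot be told apart. The scaling also moved these values: the median over all genes was 0.09 on the log2 scale with TMM factors, 0.37 with upper-quartile factors and 0.75 with library sizes alone. All 10 members were called, 6 higher and 4 lower, in a comparison that called 48.3% of all genes higher and 42.9% lower. JAG2 stood out. It was at 45.6 to 51.7 CPM (median 48.5) in H1299 and 0.174 to 0.567 CPM (median 0.483) in Grow (log2 fold change 6.78 ± 0.09, adjusted p = 1.67e-27), and its highest value in the 57 IMR90 libraries was 4.70 CPM against a lowest of 23.6 CPM in the 13 H1299 libraries. All 3 receptors were lower in H1299: NOTCH3 at 25.6 to 47.7 CPM (median 37.2) (log2 fold change -2.82 ± 0.09, adjusted p = 1.41e-19), NOTCH2 at 129.7 to 160.5 CPM (median 141) (log2 fold change -1.47 ± 0.06, adjusted p = 5.91e-18) and NOTCH1 at 20.01 to 22.6 CPM (median 21.6) (log2 fold change -1.0 ± 0.06, adjusted p = 7.32e-15), each without overlap with Grow.
JAG1 was at 36.3 to 46.5 CPM (median 40.8) in H1299 (log2 fold change 1.08 ± 0.07, adjusted p = 5.36e-14), which overlapped with the level in OIS. HES1 was at 23 to 33.8 CPM (median 28.1) (log2 fold change 0.81 ± 0.10, adjusted p = 1.95e-08) and HEYL at 4.89 to 6.78 CPM (median 5.65) (log2 fold change 1.37 ± 0.15, adjusted p = 8.15e-09), both above every Grow library. For NOTCH1, JAG2, HES1 and HEYL the ranges over all 57 IMR90 and all 13 H1299 libraries did not overlap. For NOTCH2, NOTCH3, JAG1, DLL1, HES4 and HEY1 they did. How often such ranges stay apart over all genes was not counted, so no share stands beside this. DLL1 (1.49 ± 0.28, adjusted p = 2.03e-05) and HES4 (0.42 ± 0.11, adjusted p = 0.00069) were higher and HEY1 (-0.67 ± 0.14, adjusted p = 7.52e-05) lower, with overlapping groups. HES4 in H1299 (10.03 to 16.6 CPM) lay below every Grow-v-v library (27.7 to 49.7 CPM), so its direction depends on the growing group used. HEY1 in H1299 (1.91 to 2.58 CPM) was below Grow-v-v (4.22 to 5.49 CPM) too. Between Grow-v-v and Grow, HEY1 differed by 0.58 ± 0.16 on the log2 scale. Between H1299 and Grow, the log2 difference of HEY1 was -0.01 (adjusted p = 0.931) with library sizes alone.

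In H1299, 2 receptors and 2 ligands were lower with the HMGA1 hairpin. In H1299-shA1 against H1299, 0 members rose and 5 fell (NOTCH1, NOTCH3, JAG1, JAG2, HES4) of 10 tested, against 8.65% and 6.93% of all genes. The sum of the epithelial markers was lower in the same libraries, without overlap, with KRT8 at 233 ± 7.92 CPM against 366 ± 55 CPM, and their part in these results was not tested. NOTCH1 and JAG2 were also named in the study from these libraries, so their direction is no independent evidence. JAG2 was at 23.6 to 38.3 CPM (median 30.5) against 45.6 to 51.7 CPM (median 48.5) (log2 fold change -0.67 ± 0.08, adjusted p = 7.22e-06), and NOTCH1 at 11.6 to 17.3 CPM (median 15.6) against 20.01 to 22.6 CPM (median 21.6) (log2 fold change -0.53 ± 0.08, adjusted p = 0.000105). For both genes all 6 knock-down libraries were below all 7 control libraries.
JAG1 was at 27.5 to 38.8 CPM (median 31.8) against 36.3 to 46.5 CPM (median 40.8) (log2 fold change -0.38 ± 0.07, adjusted p = 0.0011), and NOTCH3 at 16.8 to 34.4 CPM (median 22.8) against 25.6 to 47.7 CPM (median 37.2) (log2 fold change -0.63 ± 0.16, adjusted p = 0.0102). HES4 was at 5.3 to 14.1 CPM (median 8.24) against 10.03 to 16.6 CPM (median 13) (log2 fold change -0.61 ± 0.17, adjusted p = 0.0214). These 3 genes overlapped between groups, and the call on HES4 was lost without H1299-shA1 replicate 2 (adjusted p = 0.0539), 4 (0.0539) or 5 (0.0534). HES1 was at 21.1 to 27.9 CPM (median 25.5) against 23 to 33.8 CPM (median 28.1) (log2 difference -0.16 ± 0.08, adjusted p = 0.217), HEY1 differed by 0.18 ± 0.12 (95% interval -0.05 to 0.41), HEYL by -0.20 ± 0.11, NOTCH2 by 0.07 ± 0.05 and DLL1 by 0.21 ± 0.19. HEYL was called lower without H1299-shA1 replicate 3 (adjusted p = 0.0353).

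The effect of HMGA1 depletion was then compared between cells by the difference of the within-table contrasts. The H1299 effect was lower than the Grow effect for 3 of 10 members, HES4 (-1.20 ± 0.20, adjusted p = 4.24e-05), HEY1 (-0.85 ± 0.21, adjusted p = 0.0035) and NOTCH1 (-0.36 ± 0.11, adjusted p = 0.0206), and higher for 0, where 9.0% of all genes had a higher and 6.5% a lower effect. DESeq2 called 1 member higher, HES1 (log2 difference 0.38, adjusted p = 0.0493), where 1617 of 15830 genes were higher. HES1 was also the member with a higher effect and an unadjusted p under 0.05 in edgeR (0.0109). Against the OIS effect, HES1 (0.52 ± 0.14, adjusted p = 0.00816) and HEYL (0.86 ± 0.27, adjusted p = 0.0201) were higher and HEY1 (-0.58 ± 0.14, adjusted p = 0.00231) was lower in H1299, where 9.83% of all genes were higher and 8.91% lower. HES4 rose with depletion in Grow, fell in H1299 and was not called in OIS, and HEY1 rose in both IMR90 states and was not called in H1299. The depth of depletion differed: HMGA1 was at 20.1% of control in H1299-shA1, 7.21% in Grow-shA1 and 8.11% in OIS-shA1. The part of this in the unequal effects was not tested. JAG1 differed by -0.01 ± 0.12 between H1299 and Grow (95% interval -0.24 to 0.22). The 3 interaction tests share libraries.

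**Figure D4:**
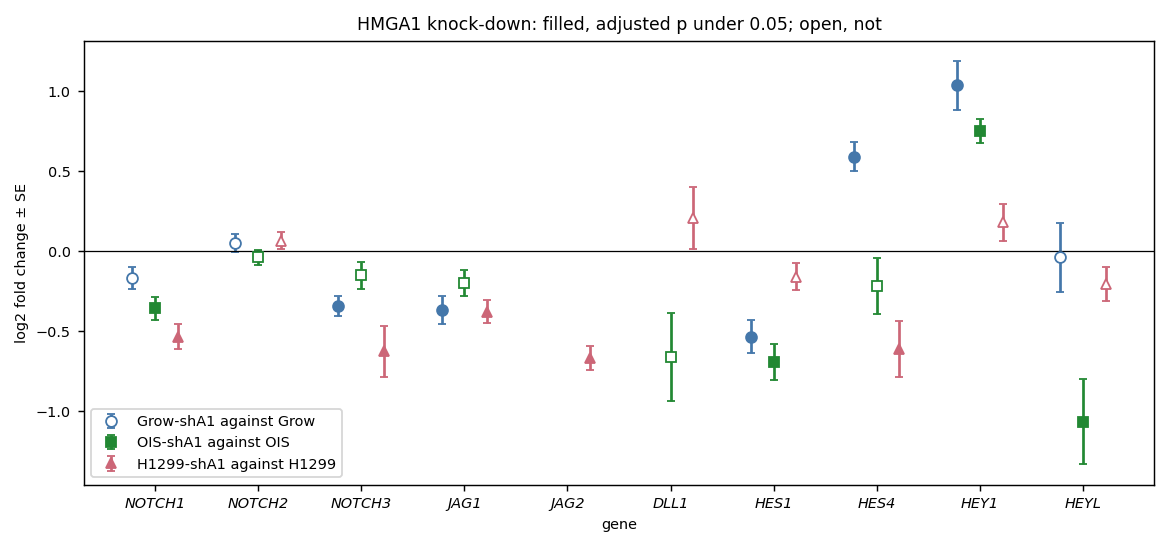
Log2 fold change ± SE on HMGA1 depletion (y axis) for each Notch gene (x axis) in Grow, OIS and H1299 cells, filled where the adjusted p was under 0.05 and open where not; genes too low to test have no point. HEY1 rises in Grow (1.04) and OIS (0.75), HES4 rises in Grow (0.59) and falls in H1299 (-0.61), and JAG2 falls in H1299 (-0.67).

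**Figure D5:**
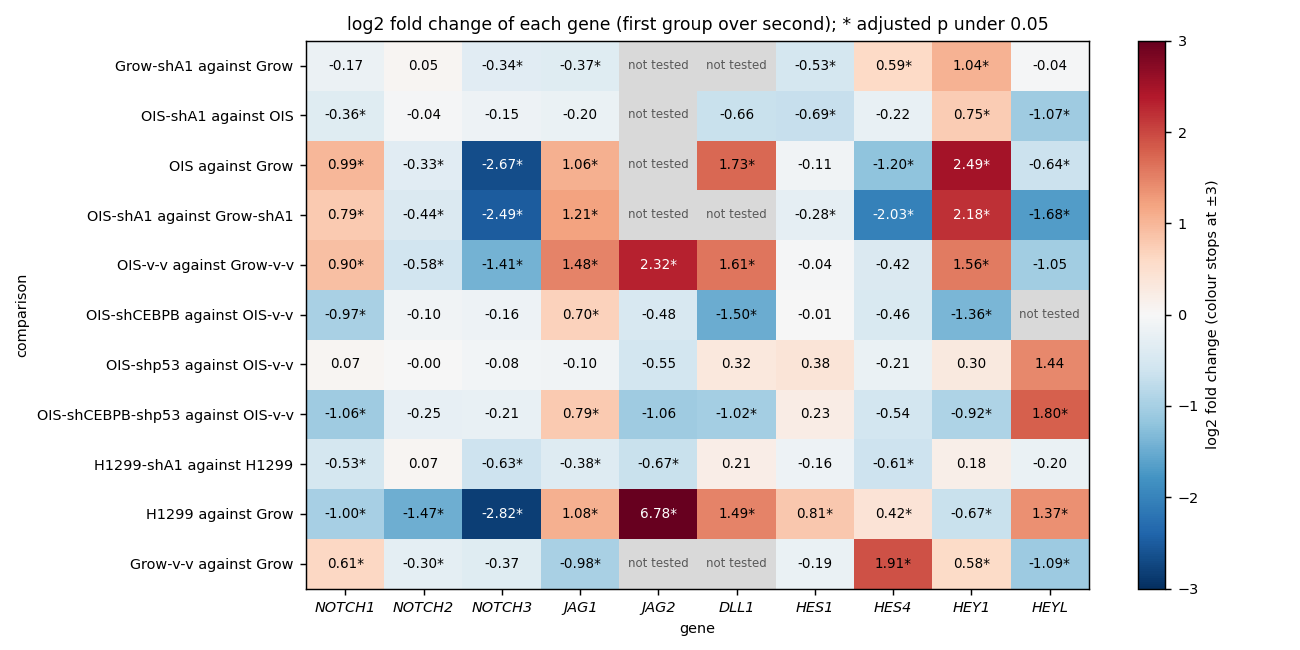
Log2 fold change of each Notch gene (x axis) in each comparison (y axis), first group over second, with colour ending at ±3 and a star where the adjusted p was under 0.05. NOTCH1, JAG1, DLL1 and HEY1 carry positive stars and NOTCH2 and NOTCH3 negative stars in OIS against Grow and in OIS-v-v against Grow-v-v.

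Other genes of the pathway were taken from a list of 63 (further receptors and ligands, processing enzymes, glycosyltransferases, trafficking and ubiquitin genes, nuclear factors and further targets). In OIS against Grow, 19 of the 53 tested rose (35.8%, against 38.8% of all genes) and 20 fell (37.7%, against 35.9%). HES7, a HES repressor, rose (3.48 ± 0.383 against 0.562 ± 0.372 CPM, log2 fold change 2.62 ± 0.23) and NEURL1B, a ubiquitin ligase for Notch ligands, fell (0.498 ± 0.357 against 16 ± 2.22 CPM, log2 fold change -4.82 ± 0.18). TLE4, a co-repressor recruited by HES proteins, fell (22.8 ± 2.12 against 71.5 ± 4.02 CPM, log2 fold change -1.67 ± 0.06), and HES7, NEURL1B and TLE4 passed the test in the same directions in OIS-v-v against Grow-v-v, where 13 of 52 rose (25%, against 22.7% of all genes) and 10 fell (19.2%, against 23.2%). DLL4, a Delta-like ligand known from endothelium, was higher in Grow-shA1 than in Grow (195 ± 18.6 against 93 ± 18.5 CPM, log2 fold change 1.08 ± 0.09), one of 10 of 52 that rose there (19.2%, against 14.8% of all genes) while 5 fell (9.62%, against 15.1%). In the same groups the 4 endothelial markers found summed to 169 to 222 CPM in Grow-shA1 and 146 to 166 CPM in Grow. Nearly all of this came from TEK (200 ± 19 CPM in Grow-shA1, 156 ± 7.2 CPM in Grow). VWF was at 0.485 ± 0.154 CPM in Grow-shA1 and 0.662 ± 0.376 CPM in Grow. The defining genes CDH5 and KDR were under 1 CPM in every library of both groups.
In OIS-shA1 against OIS, 8 of 51 rose (15.7%, against 18.8% of all genes), DNER (85.7 ± 22.3 against 43.2 ± 4.69 CPM, log2 fold change 0.97 ± 0.11) and RBPJ (467 ± 49.6 against 358 ± 27.8 CPM, log2 fold change 0.38 ± 0.06) among them, and 14 fell (27.5%, against 17.1%). RBPJ, the DNA-binding partner of the receptors, also rose with CEBPB depletion (479 ± 29.8 against 295 ± 15.1 CPM, log2 fold change 0.70 ± 0.06), where 11 of 53 rose (20.8%, against 9.09% of all genes) and 3 fell (5.66%, against 8.0%), and it fell in H1299-shA1 (81.3 ± 3.78 against 89 ± 2.38 CPM, log2 fold change -0.13 ± 0.04), where 3 of 58 rose (5.17%, against 8.65% of all genes) and 5 fell (8.62%, against 6.93%). With CEBPB depletion DNER, a non-canonical ligand, fell (25.3 ± 2.58 against 60.5 ± 3.36 CPM, log2 fold change -1.26 ± 0.07), as did NUMB, an endocytic inhibitor of Notch (154 ± 2.02 against 254 ± 9.37 CPM, log2 fold change -0.72 ± 0.05). In OIS-shp53 against OIS-v-v 3 of 53 rose (5.66%, against 2.47% of all genes) and 1 fell (1.89%, against 1.97%), and in the double knock-down 18 of 52 rose (34.6%, against 17.1%) and 6 fell (11.5%, against 16.5%). Of 57 tested in H1299 against Grow, 19 were higher (33.3%, against 48.3% of all genes), NRARP (22.4 ± 2.52 against 0.262 ± 0.148 CPM), a feedback inhibitor, and NEURL1 (9.89 ± 0.778 against 0.0662 ± 0.0956 CPM) among them, and 33 were lower (57.9%, against 42.9%), among them DLL4 (0.109 ± 0.0403 against 93 ± 18.5 CPM) and TLE4 (1.95 ± 0.348 against 71.5 ± 4.02 CPM).

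Across the 11 groups, NOTCH1 was highest in OIS-shp53 (124 ± 5.45 CPM) and lowest in H1299-shA1 (14.8 ± 2.29 CPM), and in the order of group means the ranges of 6 of the 10 neighbouring pairs overlapped. JAG1 was highest in OIS-shCEBPB-shp53 (46 ± 6.23 CPM) and lowest in Grow-v-v (9.48 ± 0.939 CPM), with 8 of 10 neighbouring pairs overlapping. HES1 was highest in H1299 (28 ± 4.11 CPM) and lowest in OIS-shA1 (8.87 ± 1.81 CPM), with 9 of 10 overlapping. HEY1 was highest in OIS-shA1 (31.9 ± 3.92 CPM) and lowest in H1299 (2.19 ± 0.274 CPM), a ratio of the means of 14.5, and HES4 was highest in Grow-v-v (36.2 ± 9.21 CPM) and lowest in OIS-shA1 (3.63 ± 0.967 CPM). Over the 11 group means of log2 CPM, which share tables and vectors, the genes of 9910 compared with the pattern most like that of NOTCH1 were MUC12, TMEM132B and PHOSPHO1 (Pearson's r = 0.97 each). For JAG1 they were ZFHX2, IL31RA and PDK3 (0.93 each), and for HES1 ADGRL2 (0.97), RFX2 (0.95) and JAK3 (0.93).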

How the data were processed

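RNA-seq was performed on 57 IMR90 and 13 H1299 libraries, in 3 tables. The authors aligned reads with STAR and deposited raw counts per GENCODE gene on hg19, made with featureCounts (1.5.2 in the headers of the tables with HMGA1 knock-downs). Fragments were counted in the first experiment and reads in the H1299 table, both without regard to strand although the kits were stranded, and reads of several loci or genes were left out by default. The header of the table of the second experiment gives no command. Counts were tested pairwise with edgeR 4.0.16 (quasi-likelihood, TMM, filterByExpr) in R 4.3.3 over all genes that passed the filter, with Benjamini-Hochberg adjusted p under 0.05 as the threshold. Levels are CPM with TMM factors over all libraries. The fits were tested on simulated data with known changes. Library totals limit the low members JAG2, DLL1 and HEYL most. An allowance of 3 counts was set on a count of 0, which covers counting error only. No pair of libraries of the same group agreed within sampling noise. Same-numbered libraries deviated together in the second experiment (every pair over 0.1 in each comparison, from 0.141 to 0.635) and not in the others, so a block is given there. Named members were the 10 listed, and other pathway genes were named where they had the largest called changes (at most 2 per direction, a mean of at least 1 CPM, groups apart). HMGA1 and CEBPB were checked in their knock-downs, and the level of the other targeted gene is not reported here. The members and lists were chosen with earlier results of these data known. Alternatives were DESeq2 1.42.0, other scalings, filters and thresholds, all groups in 1 fit, the block, and leaving out each library.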

Additional observations from a re-analysis of the deposited data

Results flagged for a closer look

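In 110 sets of 1 gene and 1 group, 7 values lay apart from the rest of their group by Dixon's test. Chance alone gives about 1 in 20, a share close to this one. OIS replicate 4, the library with 1903607 counts, accounted for 3 of these: NOTCH1 at 50.4 CPM (the others 78.4 to 99), NOTCH2 at 240.0 CPM (293.0 to 327) and HEY1 at 22.2 CPM (18 to 19.8). The others were NOTCH1 in Grow-shA1 replicate 5 at 47.1 CPM (30.5 to 38.3), JAG1 in Grow replicate 1 at 13.8 CPM (18.5 to 21.4), DLL1 in Grow replicate 6 at 0.736 CPM (0.138 to 0.289, 12 counts) and DLL1 in H1299-shA1 replicate 4 at 1.56 CPM (0.667 to 0.997, 38 counts). Without Grow-shA1 replicate 5, NOTCH1 was called lower in Grow-shA1 than in Grow (log2 fold change -0.23, adjusted p = 0.00526), which it was not with all libraries.

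The effect of HMGA1 depletion differed between cells by a tested interaction for 6 genes. On the log2 scale, the effect in OIS less that in Grow was -1.29 for DLL1, -0.81 for HES4 and -1.03 for HEYL (3281 of 13903 genes called). The call on DLL1 was lost when all genes with at least 1 count were tested (adjusted p = 0.0884). The effect in H1299 less that in Grow was -0.36 for NOTCH1, -1.20 for HES4 and -0.85 for HEY1 (2454 of 15830 genes called). The effect in H1299 less that in OIS was 0.52 for HES1, -0.58 for HEY1 and 0.86 for HEYL (2994 of 15974 genes called). With the replicate block this call on HEYL was lost (adjusted p = 0.075). What lies behind these differences was not tested.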

How the results depend on the processing

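Over the named results and their alternatives, 1 value changed sign and was called in the other direction: HES4 in OIS-v-v against Grow-v-v, at 0.19 on the log2 scale in replicates 1 to 3 alone, a subset chosen after seeing the data. The number of members called moved as follows. With library sizes alone it was 8 in OIS-shA1 against OIS (5590 of 13327 genes called) and 5 for the OIS less Grow effect (4344 of 13903). With at least 10 counts in every library it was 5 in OIS against Grow, 3 in the double knock-down and 0 for the OIS less Grow effect, since fewer genes were tested. Over all genes that filter gave 7829 of 10077, 4203 of 12377 and 3023 of 10054 called, in the same order. With a fold of at least 1.5 it was 2 in Grow-shA1 against Grow, 3 in H1299-shA1 against H1299 and 1 for the H1299 less OIS effect. With adjusted p under 0.01 it was 3 in H1299-shA1 against H1299 and 1 for the OIS less Grow effect. The calls over all genes at these fold and p thresholds are not given here, so these member counts have no share beside them. In replicates 1 to 3 alone it was 8 for OIS-shCEBPB, 7 for OIS-shp53 and 10 for the double knock-down, where 32.6%, 34% and 53.7% of all genes were called, and in replicates 4 and 5 alone 1 for OIS-shp53 (5.33% of all genes). DESeq2 called 2 members in OIS-shp53, where it called 1091 of 13378 genes. Leaving out 1 library gave 0 to 1 there (1 without OIS-v-v replicate 3, HEYL). With the replicate block in the second experiment, 3 members were called in OIS-shp53 and 9 in the double knock-down. Over all genes it called 4270 in place of 2290 for OIS-shCEBPB and 3037 in place of 594 for OIS-shp53. For the double knock-down it called 5806 in place of 4502. In the experiments with HMGA1 knock-downs the numbers did not pair (2 of 8, 1 of 8, 0 of 8, 2 of 8 and 2 of 6 pairs over 0.1), and there the block lost HEYL in OIS against Grow (adjusted p = 0.0534) and HEYL in the H1299 less OIS effect (0.075), and gained NOTCH1 in Grow-shA1 (0.0445), HES1 in H1299-shA1 (0.0417), HES1 in the H1299 less Grow effect (0.038) and NOTCH3 in the H1299 less OIS effect (0.0126). Leaving out replicates 1, 4, 5 or 7 of Grow-shA1, or 1, 7 or 8 of OIS-shA1, ended the call on HES1 between them. Library sizes alone moved the share of higher genes among called ones from 49.4% to 60.3% in Grow-shA1 against Grow, 52.3% to 27.8% in OIS-shA1 against OIS, 51.9% to 66.2% in OIS against Grow, 53.2% to 70.9% for OIS-shCEBPB, 50.9% to 71.0% for the double knock-down, 53% to 71.3% in H1299 against Grow, and for the effects 51.7% to 20.4% (OIS less Grow), 58.1% to 45.2% (H1299 less Grow) and 52.5% to 77.1% (H1299 less OIS). The cause of these shifts was not tested.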
